A study of Mus musculus with 249 samples.

Results

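The genes described here encode subunits of the mitochondrial respiratory chain and of ATP synthase, measured in the brains of an F2 mouse cross. They were chosen by symbol alone: a probe was a member if its only gene symbol began with Nduf, Atp5 or Uqcr, with Sdh and a letter from a to d, or with Cox and a digit from 4 to 8. The rule found 48 probes for 40 genes among 23388 probes on the array, of which 13645 carried 1 symbol. Grouped by symbol these were 14 genes of complex I, 3 complex I assembly factors, 14 genes of complex IV and 9 genes of ATP synthase. Ndufa4l2, a paralogue of the complex IV subunit Ndufa4, counts with complex I here only because of its symbol. No probe carried an Sdh or Uqcr symbol alone, so complexes II and III are not covered. Of the 40 genes, 33 had a probe with a value on at least 90% of the arrays and entered the tests, among 11508 genes in all.

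The respiratory chain sits in the inner mitochondrial membrane. Complex I takes electrons from NADH, complex IV (cytochrome c oxidase) passes them to oxygen, and ATP synthase uses the proton gradient that both build up to make ATP, on which neurons depend for ion pumping and synaptic transmission. Most subunits are encoded in the nucleus, and some complex IV subunits exist as isoforms that differ between tissues. The catalytic complex IV subunits and several of complex I come from mitochondrial DNA, and no probe here carried a symbol of a mitochondrially encoded gene.

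Each of 249 brains was measured on 1 array with 2 colours. The mice were F2 offspring of C57BL/6J and C3H/HeJ parents, all without ApoE, and ate a Western diet between 8 and 24 weeks of age; both sexes were included, and the labels give neither sex nor genotype for each animal. Animal RNA was labelled with Cy3 and set against a Cy5 pool that held an equal amount of RNA from each sample, so all animals form 1 group and no control group exists. The sample descriptions speak of 330 mice, and 249 arrays were available here. Each value is the log10 of animal over pool, and 0.301 is a 2-fold excess over the pool; a ratio to a pool holds no absolute level, and levels cannot be compared between genes. In whole brain, fewer cells of a type and less RNA per cell cannot be told apart.

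Several arrays stood apart. Animal 144, with an array SD over probes of 0.392, was left out of all values below unless stated. Among the other 248 arrays the SD ran from 0.0585 to 0.258 with a median of 0.0764. The highest SD was that of animal 178, whose array had a median correlation of 0.00480 with the others, and the next highest were those of animals 213 and 336. Animal 178 held the highest value of 13 of the 33 genes and the lowest of 4, and animal 336 the highest of 4 and the lowest of 9. Some of the correlations below are given without animals 178 and 336 as well; animal 213 was kept in these. Of 30628 pairs of arrays, 6 correlated below -0.3, the lowest at -0.353; the direction was kept, since the labels give 1 dye order and the Y-linked transcripts lay near the log10 of 2 on the upper side.

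The members most often missing were subunits of the catalytic head of ATP synthase and ubiquitous complex IV isoforms. Of the 48 probes, 9 (18.8%) had a value on fewer than 90% of arrays, against 1.43% of all probes. Atp5a1 and Atp5b, the alpha and beta subunits that form the catalytic head, had values on 31 and 33 of 248 arrays. Cox4i1, the common form of subunit 4, had 75, Cox6a1 111, Cox5a 148 and Cox7c 213. The probes of Atp5k, the e subunit, had 112 and 194, and 1 of the 2 probes of Ndufa13 had 120. The gaps were nested: over the 36 pairs of these probes, a median of 100% and at least 85.7% of the arrays that lacked the probe with fewer gaps also lacked the other. Of the arrays, 26 had a value for all 9 probes and 30 had none of them. The number of all probes without a value ran from 2 to 461 per array with a median of 154.5. What led to a missing value was not tested.

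All 33 genes averaged close to the pool, and their spread between brains was no wider than that of other genes. The means ran from -0.0389 (Cox7b) to 0.0226 (Ndufa13), and 33 of 33 lay within 0.05 of the pool, as did 96.6% of all genes. The SD over animals had a median of 0.0488, against 0.0546 over all genes, and 13 of 33 members lay above the median of all genes, where 50% of all genes lie by definition. The factor between the 5th and 95th percentile of animals ran from 1.20 (Cox4i2) to 2.26 (Ndufa1), with a median of 1.43.

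**Figure D1:**
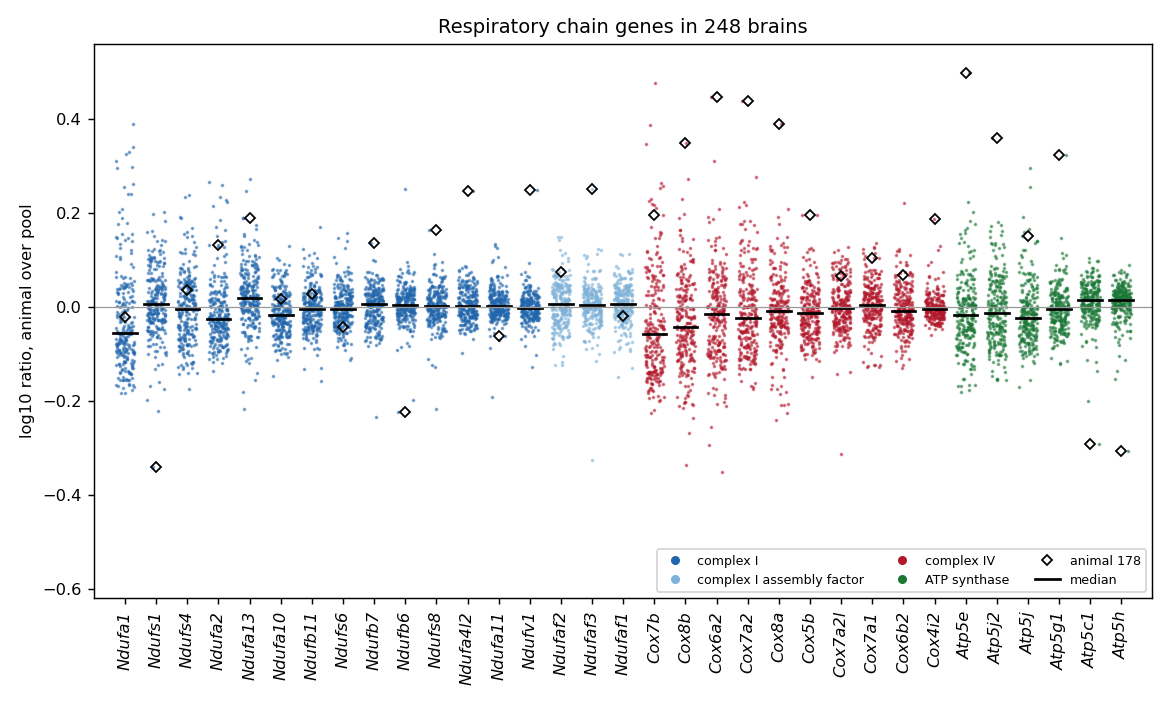
Log10 ratio of animal to pool (vertical axis) for each of 33 genes, grouped by complex and ordered by SD; each point is 1 of 248 animals, the line is the median and the open diamond is animal 178. Cox7b and Ndufa1 are the widest, and animal 178 lies beyond all other animals for 17 genes, 13 of them on the upper side.

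The widest spread was found in Cox7b, a small accessory subunit of complex IV. Its values ran from -0.226 to 0.477 with a median of -0.0578, the mean was -0.0389 ± 0.114 (SD, n = 248), and the upper end was set by animal 151. Ndufa1, an accessory subunit needed for complex I assembly, ran from -0.183 to 0.389 with a median of -0.0558, with an SD of 0.109. Both genes lie on the X chromosome, and in both the median lay below the mean, with a tail of high animals. Ndufb11, on the X chromosome too, was narrower, with an SD of 0.0462. Ndufa2 on chromosome 18 and Atp5j on chromosome 16 also had a tail of high animals. Cox8b, the heart and muscle form of subunit 8, ran from -0.337 to 0.350 with a median of -0.0433. Cox6a2, the heart and muscle form of subunit 6a, ran from -0.352 to 0.447 with a median of -0.0153, and Cox7a2, the form of subunit 7a found in most tissues, from -0.175 to 0.438 with a median of -0.0234. Animal 178 set the upper end of these last 3 genes, and without it their SDs were 0.0923, 0.0897 and 0.0839, against 0.0954, 0.0944 and 0.0885 with it.

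Within complex I, the core subunits differed in spread. Ndufv1, which carries the NADH binding site, ran from -0.128 to 0.250 with a median of -0.00112, and animal 178 was the only one above 0.0928. Ndufs8, an iron-sulfur subunit of the arm that hands electrons to ubiquinone, ran from -0.218 to 0.164 with a median of 0.00251. Ndufs1, the largest iron-sulfur subunit, was wider, from -0.340 to 0.201 with a median of 0.00556. Of the accessory subunits, Ndufb11 ran from -0.157 to 0.170 with a median of -0.00429, and Ndufa13, also known as GRIM-19, from -0.217 to 0.272 with a median of 0.0199. Ndufa2, an accessory subunit of the peripheral arm, ran from -0.137 to 0.266 with a median of -0.0247. The assembly factors Ndufaf1, Ndufaf2 and Ndufaf3 had SDs of 0.0400, 0.0477 and 0.0461. Ndufaf3 had 1 low animal, 336, at -0.325, and 1 high animal, 178, at 0.252, while 90% of animals lay between -0.0574 and 0.0715.

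In ATP synthase, subunits of the stalk and the membrane part differed in shape. Atp5j, coupling factor 6 of the peripheral stalk, ran from -0.171 to 0.296 with a median of -0.0241, with a tail of high animals. Atp5j2, the f subunit, ran from -0.155 to 0.360 with a median of -0.0119, and Atp5g1, one of the genes for the c ring, from -0.121 to 0.325 with a median of -0.00501. Atp5c1, the central gamma subunit, ran from -0.291 to 0.104 with a median of 0.0138, and Atp5h, the d subunit of the peripheral stalk, from -0.307 to 0.0897 with a median of 0.0157, so that both had their extreme values on the low side. Atp5e, the epsilon subunit of the central stalk, had an SD of 0.0796, the widest of the 6, and animal 178 lay at 0.499, above the next at 0.223.

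The chain genes moved together across animals more often than genes in general did. Over the 528 pairs of members the median Pearson r was 0.222, against -0.0005 over all pairs of genes. An r of at least 0.5 was reached by 95 pairs (18.0%), against 2.86% of all gene pairs, and an r of -0.5 or lower by 8 pairs, against 2.05%. Without animals 178 and 336, the median was 0.220 and 82 pairs (15.5%) reached 0.5. The median was 0.239 among the 124 animals of lower number and 0.185 among the 124 of higher number. Membership of the same complex went with a small difference: the median was 0.256 within complexes and 0.213 between them. It was 0.336 within complex IV, 0.229 within complex I and -0.0924 within ATP synthase, whose 15 pairs split into 5 of at least 0.5 and 10 below it. These pairs share genes and animals, so no test was made of the difference.

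**Figure D2:**
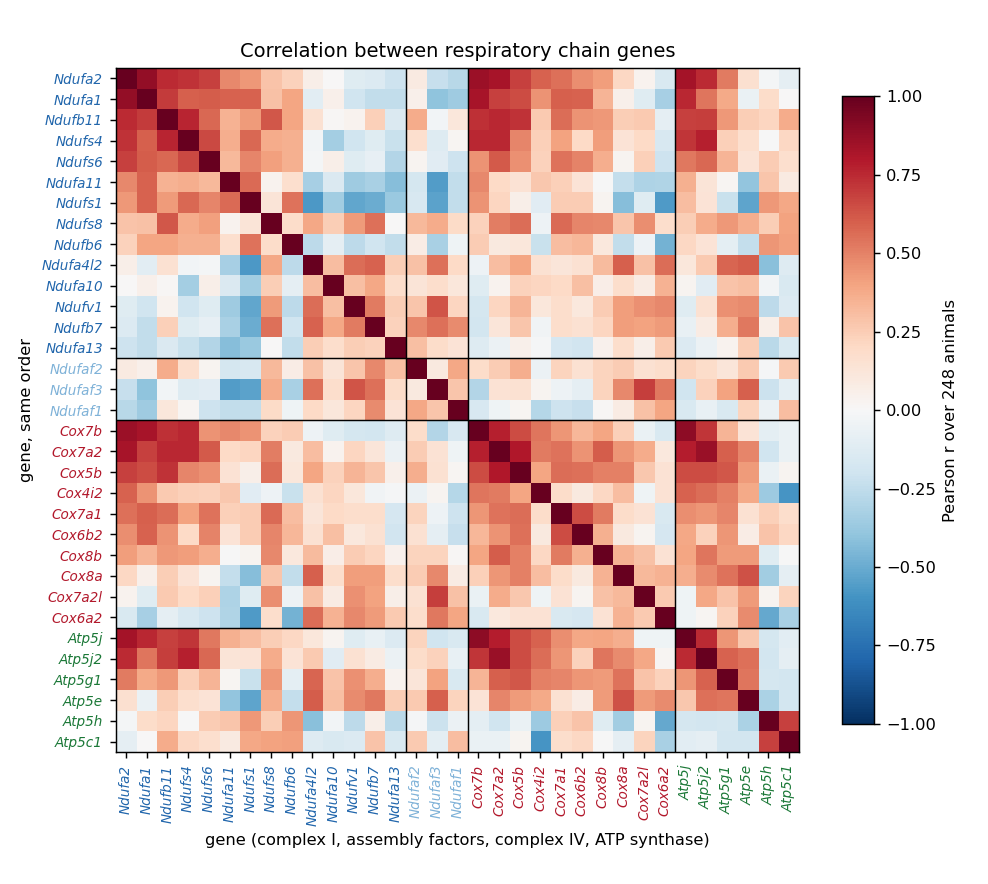
Pearson r over 248 animals for each pair of the 33 genes, ordered by complex and, within a complex, by r with Ndufa2; red is positive and blue negative. A red block links Ndufa2, Ndufa1, Ndufb11, Ndufs4 and Ndufs6 with Cox7b, Cox7a2, Cox5b, Atp5j and Atp5j2 across complexes. Ndufs1 is blue against Ndufv1 and Ndufb7 of its own complex, the assembly factor Ndufaf3, and Ndufa4l2, grouped with complex I by symbol.

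A first set of members from 3 complexes varied as a block. The highest r of all pairs was between Atp5j and Cox7b, 0.898 (Spearman rho 0.865, 0.890 without animals 178 and 336), a peripheral stalk subunit and a complex IV subunit. Ndufa1 and Ndufa2 followed at 0.880 (rho 0.784), Atp5j2 and Cox7a2 at 0.866 (rho 0.838), and Cox7b and Ndufa2 at 0.857 (rho 0.801). Ndufs4, an accessory subunit whose loss causes Leigh-like disease in mice, reached 0.775 with Atp5j2 and 0.763 with Ndufb11. Cox5b, a structural complex IV subunit, reached 0.798 with Cox7a2. These r values changed by less than 0.1 without animals 178 and 336.

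Other members were only partly apart from that block. Atp5e reached 0.549 with Atp5j2 and Cox8a 0.504 with Cox5b of the block (0.521 and 0.445 without animals 178 and 336). Ndufaf3 had -0.404 with Ndufa1 of the block. Ndufa4l2, a paralogue induced by low oxygen, Ndufb7, Ndufv1, Ndufaf3, Cox6a2, Cox8a and Atp5e correlated with each other, at r from 0.344 to 0.634 over their 21 pairs. Several of these values leaned on the extreme animals. Ndufv1 and Ndufaf3 had an r of 0.629 but a rho of 0.379, and 0.503 without animals 178 and 336, while Ndufa4l2 and Ndufv1 went from 0.559 to 0.410. Atp5e and Cox8a, at 0.634 with a rho of 0.604, leaned on them less. Ndufs1 ran against this set: its r was -0.571 with Ndufa4l2 (-0.493 without both animals), -0.568 with Cox6a2 (-0.504) and -0.520 with Ndufv1 (-0.416), its partner in the arm that oxidises NADH. Atp5c1 and Atp5h correlated with each other at 0.684 (rho 0.497, 0.557 without both animals). Their median r to the other members was 0.00132 and -0.0441, but 0.123 and 0.0256 without both animals. Single members came closer: without both animals Atp5c1 reached 0.536 with Ndufs8 and 0.426 with Ndufb11, and Atp5h 0.412 with Ndufs1 and 0.396 with Cox7a1. Cox4i2, the form of subunit 4 first found in lung, ran against Atp5c1 at -0.587, or -0.434 without both animals.

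**Figure D3:**
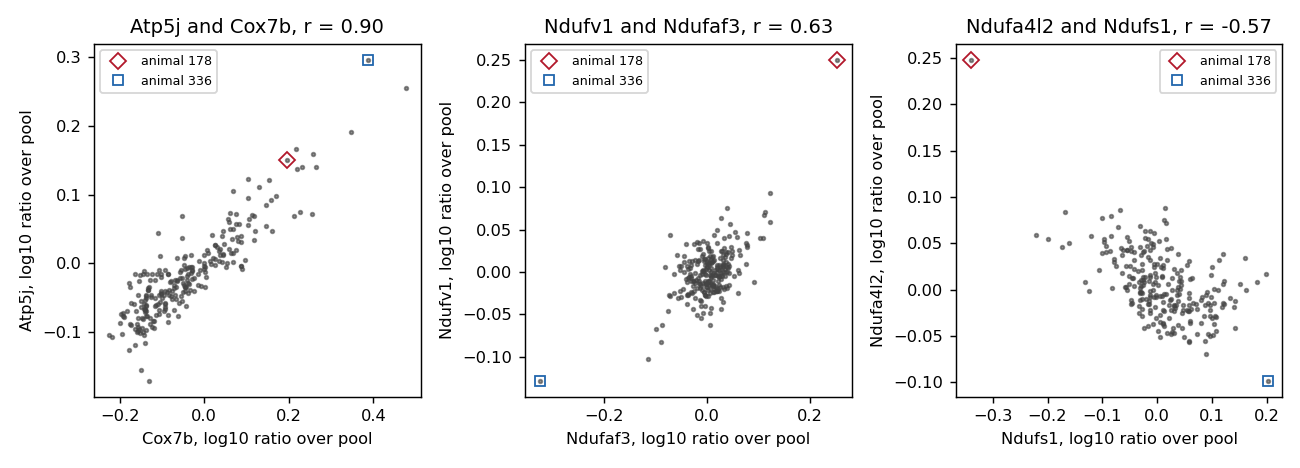
Log10 ratios of 3 gene pairs, 1 point per animal (n = 248): Atp5j against Cox7b, Ndufv1 against Ndufaf3 and Ndufa4l2 against Ndufs1; the diamond marks animal 178 and the square animal 336. The first pair forms a continuous band (r = 0.90), while both marked animals lie far from the rest in the second pair and animal 178 does so in the third.

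Members closest to the rest came from each complex. The highest median r with the other 32 members was that of Cox7a2 (0.444), Cox5b (0.410), Atp5g1 (0.390), Ndufb11 (0.383), Atp5j2 (0.377) and Ndufs8 (0.367). The lowest were those of Atp5h, Ndufa13 (-0.0319), Atp5c1 and Ndufaf1 (0.0141), the assembly factor of the complex I membrane arm. Among the assembly factors Ndufaf2 had 0.184 and Ndufaf3 0.121, and Cox6a2 was the lowest in complex IV at 0.122. Without animals 178 and 336 the highest were Ndufb11 (0.435), Cox7a2 (0.434) and Atp5j2 (0.416), and the lowest Ndufa13 (-0.0989), Ndufaf1 (0.0115), Atp5h, Cox6a2 (0.0293) and Ndufaf3 (0.0337). The places of Ndufa13 and Atp5c1 may depend on the probes. Only 1 probe of Ndufa13 was used, which correlated with the other at 0.284, and the probes of Atp5c1 correlated at 0.170 to 0.950.

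The promoters of 3 gene pairs are shown because the genes of each pair moved together. Each is the 250 bases before the RefSeq start on GRCm38.p6, printed on the gene's own strand, with matches to the motifs below in capitals. Atp5j (chr16:84834977-84835226, minus strand, the first of its 2 windows, of which the other held no motif) and Cox7b (chrX:106015450-106015699, plus strand) had the highest r of all pairs.
Atp5j: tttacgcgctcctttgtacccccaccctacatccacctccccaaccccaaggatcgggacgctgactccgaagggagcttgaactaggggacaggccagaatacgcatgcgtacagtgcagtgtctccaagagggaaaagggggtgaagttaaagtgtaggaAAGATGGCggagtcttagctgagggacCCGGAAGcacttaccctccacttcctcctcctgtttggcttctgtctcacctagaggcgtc
Cox7b: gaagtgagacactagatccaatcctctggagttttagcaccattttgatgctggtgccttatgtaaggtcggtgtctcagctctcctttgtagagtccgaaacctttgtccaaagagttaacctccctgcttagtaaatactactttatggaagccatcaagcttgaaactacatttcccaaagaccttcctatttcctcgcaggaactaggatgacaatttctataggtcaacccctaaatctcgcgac
Cox7a2 (chr9:79759854-79760103, minus strand) and Atp5j2 (chr5:145191542-145191791, minus strand) followed them among pairs with both windows on hand.
Cox7a2: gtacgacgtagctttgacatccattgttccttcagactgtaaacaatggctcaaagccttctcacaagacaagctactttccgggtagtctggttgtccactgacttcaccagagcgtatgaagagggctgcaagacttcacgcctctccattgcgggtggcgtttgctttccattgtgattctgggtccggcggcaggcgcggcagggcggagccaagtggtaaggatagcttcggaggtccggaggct
Atp5j2: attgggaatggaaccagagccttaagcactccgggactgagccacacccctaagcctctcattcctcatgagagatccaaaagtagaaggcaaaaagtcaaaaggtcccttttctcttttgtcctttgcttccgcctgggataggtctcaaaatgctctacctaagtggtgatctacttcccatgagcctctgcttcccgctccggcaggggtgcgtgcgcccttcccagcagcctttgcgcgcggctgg
Atp5c1 (chr2:10080433-10080682, minus strand, also the first of 2, the other without a motif) and Atp5h (chr11:115419920-115420169, minus strand) both had their extreme animals on the low side.
Atp5c1: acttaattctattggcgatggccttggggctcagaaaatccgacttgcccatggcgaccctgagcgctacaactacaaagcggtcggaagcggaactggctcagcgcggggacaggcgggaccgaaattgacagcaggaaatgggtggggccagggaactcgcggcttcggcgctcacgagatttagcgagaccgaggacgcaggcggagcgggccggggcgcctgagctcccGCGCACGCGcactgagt
Atp5h: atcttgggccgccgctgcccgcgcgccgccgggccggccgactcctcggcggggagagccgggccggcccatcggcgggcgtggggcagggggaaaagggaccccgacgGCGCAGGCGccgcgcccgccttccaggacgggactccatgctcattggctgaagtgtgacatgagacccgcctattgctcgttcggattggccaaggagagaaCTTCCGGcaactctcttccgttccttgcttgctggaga

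In these windows both strands were searched for GCGCANGCG, most of the site of nuclear respiratory factor 1 (NRF1), for CCGGAAG, a core bound by ETS factors such as GABPA, and for AAGATGGC, a YY1 site. Factors of these families are known regulators of respiratory chain genes. RefSeq windows were on hand for 33 of the 40 genes, 35 windows in all. The NRF1 letters stood in 6 windows (17.1%), those of Atp5c1, Atp5h, Atp5k, Cox6a1, Ndufa11 and Ndufs6, against 5.16% of all windows and 7.74% of windows of measured genes. These letters were shortened by 1 after a first search, so their share is no independent test. Atp5k and Cox6a1 had no probe with values on 90% of arrays and did not enter the tests. The ETS letters stood in 7 (20.0%), those of Atp5e, Atp5h, Atp5j, Cox6a1, Ndufaf1, Ndufb6 and Ndufb7, against 6.91% and 9.46%. The YY1 letters stood in 1 window, that of Atp5j, against 1.56% and 1.37%; they do not overlap its ETS letters. The windows of Cox7b, Cox7a2 and Atp5j2 held none of the 3, and Atp5c1 and Atp5h both held the NRF1 letters.

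When every gene was fitted on the level of 1 member with limma, other members were called with a positive slope more often than genes in general. This held for 33 of 33 members taken as the reference, but these fits share genes and animals and are not independent. For some the excess was small, as for Ndufa13, with 9 of 32 members against 25.6% of all genes. Of the other 32 members, between 9 and 28 were called positive (median 20), while 15.3% to 37.6% of all genes were (median 32.9%). Between 0 and 13 members were called negative (median 4), against 18.8% to 37.9% of all genes (median 30.2%). A reference gene thus called a large share of all genes in either direction, and the members' counts are read against that share.

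**Figure D4:**
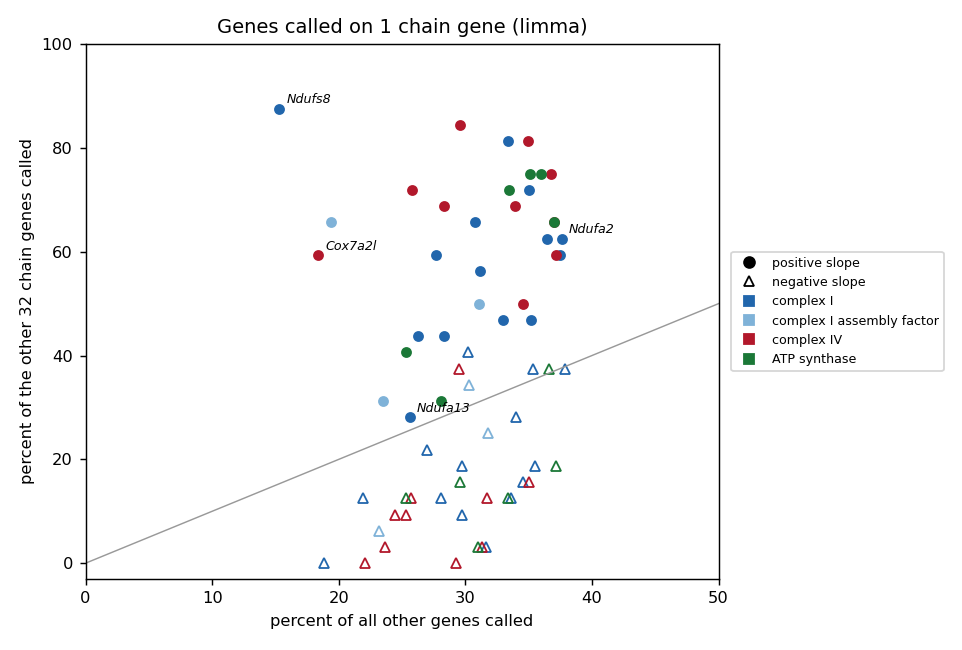
For each of 33 chain genes used as the reference, the percent of the other 32 chain genes called (vertical axis) against the percent of all other genes called (horizontal axis) at an adjusted p under 0.05 in limma; filled circles are positive slopes, open triangles negative slopes, colours are complexes and the line marks equal shares. Every circle lies above the line, and Ndufs8 has the highest share of chain genes, 28 of 32, with the lowest share of all genes, 15.3%.

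The members' excess over all genes was widest for Ndufs8, on which the smallest share of all genes was called positive. On Ndufs8, 28 of 32 members were called positive and 0 negative, against 15.3% and 18.8% of all genes. The 4 that were not called were Cox4i2 (adjusted p = 0.569), Ndufa11 (0.694), Ndufa13 (0.971) and Ndufs1 (0.111). At an unadjusted p under 0.05, 0 were negative, and under other settings at most 1. Cox7a1 called 27 members positive and 3 negative, against 29.6% and 24.4% of genes. Ndufb11 called 26 positive and 1 negative, against 33.4% and 31.6%, and Cox5b 26 and 0 (0 negative in limma at an unadjusted p under 0.05), against 34.9% and 29.2%. At the other end, Ndufa13 called 9 positive and 13 negative, against 25.6% and 30.2%, and Atp5h 10 positive and 12 negative, against 28.1% and 36.6%.

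On Ndufa2, 20 of 32 members were called positive and 5 negative, against 37.6% and 34.5% of all genes. The steepest slopes were those of Cox7b, 1.40 ± 0.0534 (SE) log10 units per unit of Ndufa2 (limma adjusted p = 2.06e-70), and Ndufa1, 1.37 ± 0.0470 (adjusted p = 1.11e-78). Cox7a2 followed with 1.04 ± 0.0451. The negative members were Ndufaf1, Ndufaf3, Ndufa13, Ndufb7 and Cox6a2, with slopes from -0.200 (Cox6a2, adjusted p = 0.0268) to -0.0816 (Ndufb7, adjusted p = 0.0388). None of them was called negative among the 124 animals of lower number, nor among the 229 animals of the lower part of Ndufa2 described next.

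Ndufa2 and a few other members had a tail of animals that a mixture of 2 normal components set apart. For Ndufa2 the upper part held 19 animals with a component mean of 0.163, 1.55-fold over the -0.0263 of the other 229, but no gap divided them: the lowest of the 19 lay at 0.103 and the highest of the others at 0.0954. For Ndufa1 the upper part held 26 animals, 1.84-fold over the rest, and 18 of the 19 upper animals of Ndufa2 were among them. For Atp5j it held 16, of which 11 were shared with Ndufa2, and for Cox4i2 it held 8, of which 7 were shared with Ndufa2. In the opposite direction, Atp5c1 and Atp5h each had 5 low animals, 4 of them shared. For Atp5e, Atp5g1, Ndufa4l2 and Ndufv1 the smaller part was animal 178 alone, and for Ndufb6 it was 2 animals. Of the 33 genes 11 met the criterion, a gain of over 10 in BIC with the means at least 3 SD apart. The 19 animals carried numbers from 25 to 336, 7 of them among the lower 124.

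One reference gene was set beside another for each complex with a probe. Ndufa2 and Atp5j correlated at r = 0.752 within the 229 animals and 0.636 within the 19, with permutation p of 1e-05 and 0.00306. Over all 248 animals r was 0.834, rho 0.810, and 0.808 once the 2 animals with the most extreme Ndufa2 were dropped. Cox5a, a structural subunit of complex IV, had 148 arrays, on which it ran from -0.148 to 0.170 with a median of -0.0321. Its r with Ndufa2 was 0.582 (rho 0.570, 0.624 without the 2 farthest animals), at 0.548 in the 138 animals of the lower part of Ndufa2 and 0.101 in the 10 of the upper part (permutation p = 0.787). Cox5a and Atp5j correlated at 0.560 (rho 0.605, 0.509 without the 2 farthest). All 3 relations over the full set had an adjusted permutation p of 1e-05, the smallest that 100000 permutations can give, both for r and for rho.

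Complex IV isoforms that replace one another between tissues were not opposed across these brains. Cox7a1, the muscle form of subunit 7a, ran from -0.128 to 0.136 with a median of 0.00320 and correlated with Cox7a2 at 0.546 (rho 0.515, 0.536 without the 2 farthest animals, adjusted permutation p = 3.00e-05). Cox8a, the form of most tissues, ran from -0.240 to 0.389 with a median of -0.00929 and correlated with Cox8b at 0.348 (rho 0.343, 0.347 without the 2 farthest, adjusted permutation p = 3.00e-05). Cox6a1, with 111 arrays, ran from -0.361 to 0.205 with a median of -0.00286. Its r with Cox6a2 was 0.436 (rho 0.270, 0.345 without the 2 farthest, adjusted permutation p = 5.40e-05). Cox4i1, with 75 arrays, ran from -0.234 to 0.105 with a median of -0.0128, and Cox4i2 over 248 from -0.0595 to 0.188 with a median of -0.00452. This last pair did not pass, at r = 0.168 (adjusted permutation p = 0.167) but rho 0.269 (adjusted permutation p = 0.0230), and r was 0.453 without the 2 farthest animals. Cox6b2, the testis form of subunit 6b, ran from -0.129 to 0.222 with a median of -0.00862; neither Cox6b1 nor Cox8c had a probe of its own.

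Markers of skeletal muscle moved with some of these isoforms. Of 8 such markers 6 were measured (parvalbumin, which brain interneurons express too, among them), and their mean ran from -0.100 to 0.480 with a median of -0.0327. In a mixture, 7 animals formed an upper part. Within the other 241 animals r with the marker mean was 0.281 for Cox8b, 0.344 for Cox7a1 and 0.0581 for Cox6a2, the muscle forms, and 0.413 for Cox7a2 and 0.210 for Cox8a, the forms of most tissues. Within the 7 animals these were, in the same order, 0.105, 0.138, 0.379, -0.473 and 0.237. Over all animals, of 9 isoform relations adjusted together, Cox8b, Cox7a1 and Cox7a2 passed with the marker mean, at permutation p of 3.00e-05, 4.50e-05 and 0.000270; Cox8a and Cox6a2 did not, at 0.0768 and 0.612. The part of muscle RNA in the isoforms' values was not tested.

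Outside the chain, the gene whose pattern was most like the mean z of the 33 members was Mrps21, a subunit of the small mitochondrial ribosome, with r = 0.839 over 248 animals. Next came Mcee (0.824), Morn2 (0.810), Bet1l (0.793), Laptm4a (0.785), Hint1 (0.785), Grcc10 (0.781), Rbx1 (0.780), FAM96B (0.774) and the ribosomal protein gene Rpl10 (0.768). The least alike were Phlpp1 (-0.788), Fchsd2 (-0.778), Usp24 (-0.774), WDR68 (-0.771) and Clasp1 (-0.767). Each kept its sign in the animals of lower and of higher number, Mrps21 at 0.850 and 0.830 and Clasp1 at -0.816 and -0.698. The median r of all genes with the same mean was 0.0207. All of these genes are measured on the same arrays as the members.

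Other mitochondrial lists followed Ndufa2 in part. Of 29 measured mitochondrial ribosome genes, which make the mitochondrially encoded subunits, 15 were called positive and 9 negative, with a median r of 0.157 against 0.0130 over all genes and 0.353 over the members. Mrps21 and Mrps2 were highest (0.782 and 0.717) and Mrpl37 lowest (-0.599). Of 14 import genes, 7 were positive, led by Timm10 (0.778) and Timm10b (0.476), and 3 negative, with Tomm34 lowest (-0.490). Of 7 measured genes in the list of mitochondrial carriers and channels 3 were positive and 1 negative, Slc25a11 (-0.222). The positive genes were Vdac1 (0.583), the ADP/ATP carrier Slc25a4 (0.327) and the creatine kinase Ckmt1 (0.140), which is neither carrier nor channel. The citric acid cycle split: of 8 measured genes 3 were positive, with Idh3g (0.720) and Idh3b (0.507), the regulatory subunits of isocitrate dehydrogenase, at the top, and 5 negative, with malate dehydrogenase Mdh2 lowest (-0.556). All r of single genes and all counts in this and the next 2 paragraphs come from the fit on Ndufa2 over 248 animals, to be read against 37.6% of genes called positive and 34.5% negative.

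Genes that build or regulate the chain were called in both directions. Their list means ran against Ndufa2 by r over all animals, but did not pass within the 229. Over all animals the mean of the outside assembly factors had r = -0.198 (adjusted permutation p = 0.00445), but its rho of -0.0816 did not pass (adjusted permutation p = 0.255). That of the regulators had r = -0.207 and rho -0.149 (adjusted permutation p = 0.00266 and 0.0317). Within the 229 animals neither passed, at -0.0901 and -0.140 (adjusted permutation p = 0.214 and 0.0579). Of 12 measured assembly factors outside the rule, 4 were positive and 4 negative, shares near those of all genes. Nubpl, which inserts iron-sulfur clusters into complex I, had r = 0.408, Surf1, a complex IV assembly factor, 0.214, and Cox10, which makes the haem precursor of complex IV, -0.676. Among 12 regulators 5 were positive and 6 negative; Tfam, the packaging factor of mitochondrial DNA, had r = 0.445, the polymerase gene Polg 0.306 and the coactivator gene Ppargc1b -0.486. Of 3 measured coenzyme Q and electron transfer flavoprotein genes, Coq7 was positive (0.542), Coq10b negative (-0.303) and Coq2 not called (0.0675, limma adjusted p = 0.337). Of the subunits and partners outside the rule only Stoml2 was measured, at r = 0.101 (adjusted p = 0.145). In the glycolysis list, 3 of 14 were positive, led by the neuronal enolase Eno2 (0.636) and Aldoc (0.367), and 7 negative, with Gapdh lowest (-0.689). The other positive gene, Pigq (0.211), does not encode a glycolytic enzyme but enters the list mean given below.

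Lists outside the mitochondrion had members as close to Ndufa2 as the chain's own. Of 38 cytosolic ribosomal protein genes 22 were positive and 9 negative, with Rpl23 at 0.853, Rpl7a at 0.723 and Rps6 at -0.578. Of 30 genes in the proteasome list 16 were positive and 8 negative, with Psma2 at 0.866, Psma3 at 0.790 and Psmb6 at -0.616. The positive genes include Psmc3ip (0.213), which is not a proteasome subunit. Of 12 listed Snrp and Lsm genes 5 were positive and 4 negative, with Snrpd1 at 0.654, Snrpe at 0.581 and Snrpa at -0.845. The 4 negative genes were Snrpa, Snrpa1, Lsm10 and Lsm11, none of which encodes an Sm or Lsm protein of the spliceosome. Nor does Snrpc, which was not called. The ribosome and proteasome lists thus held members of opposite sign, as did the chain. The shares of the Snrp and Lsm list lay near those of all genes.

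The means of these lists were set against Ndufa2 as well, 27 relations adjusted together with cell type markers and array measures, of which 17 passed over all animals, 11 positive and 6 negative. Within the 229 animals of the lower part of Ndufa2, r was 0.496 for the cytosolic ribosome, 0.485 for import, 0.479 for the proteasome, 0.456 for the mitochondrial ribosome, 0.343 for carriers and -0.253 for glycolysis, at adjusted permutation p of 0.000270 or lower. Within the 19 upper animals the same 6 ran at -0.223, -0.275, -0.149, -0.422, -0.272 and -0.0335, with adjusted permutation p of 0.643 or higher, so that none passed there; whether the parts differ was not tested. The citric acid cycle did not pass, at -0.0418 (adjusted permutation p = 0.597).

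Markers of vessels and astrocytes ran against Ndufa2 as lists, while those of neurons did not pass. Counts of markers called are again to be read against 37.6% of genes called positive and 34.5% negative. Of 8 endothelial and pericyte markers, all measured, 1 was called positive and 6 negative, led by the pericyte gene Rgs5 (-0.515). Their mean ran from -0.156 to 0.0653 and had r = -0.329 with Ndufa2 in the 229 animals and -0.154 in the 19. Of 6 measured astrocyte markers (of 8), 1 was positive and 4 negative, led by the glutamate transporter Slc1a3 (-0.473). Their mean ran from -0.314 to 0.304, with r = -0.287 and -0.0251. Of 7 microglia markers (of 8), 2 were positive and 4 negative, with a mean from -0.180 to 0.194 and r = -0.131 (adjusted permutation p = 0.0765) and -0.330. Over all animals the microglia mean passed, at r = -0.175 (rho -0.168, adjusted permutation p = 0.0105). Of 6 neuron markers (of 10), 2 were positive, Eno2 and Nefm (0.324), and 2 negative, with Syt1 lowest (-0.450). The neuron mean ran from -0.164 to 0.0688, with r = -0.143 (adjusted permutation p = 0.0572) and 0.346. Oligodendrocyte markers, 6 of 8 measured, had r = -0.109 (adjusted permutation p = 0.150) and 0.00389. Ratios to a pool cannot show a marker at 0, and the part of cell composition in the members' values was not tested.

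Markers of tissues that may come along with brain were set against Ndufa2 too. In the 229 animals r with Ndufa2 was 0.199 for cerebellum, 0.169 for skeletal muscle, 0.102 for lung, 0.00562 for anterior pituitary, 0.00501 for meninges and fibroblasts and -0.00602 for red cells. The first and the second of these passed within the 229 (adjusted permutation p = 0.00582 and 0.0216). Over all 248 animals skeletal muscle passed again, at 0.242 (adjusted permutation p = 0.00111), and lung passed, at 0.209 (0.00200), while cerebellum did not, at 0.132 (0.0569). Of 6 measured muscle markers 3 were called positive and 0 negative, against 37.6% and 34.5% of all genes. Parvalbumin (0.515) and Ckm (0.512) were highest and Tnnt3 lowest (-0.0699). Of 6 cerebellum markers 2 were positive and 1 negative, with Zic1 (0.435) and Calb1 (0.266) highest and Cbln3 lowest (-0.159). Within the 19 upper animals lung had r = 0.551 (adjusted permutation p = 0.185). The mean of the lung markers lay from -1.35 to -0.951 over the 248 arrays, far below the pool on every one. That is at odds with an equal pool of these brains alone, and the reason was not tested. Array measures moved with Ndufa2 too: r with the array median was 0.376 in the 229 animals (adjusted permutation p = 3.37e-05), and r with the array SD was 0.105 there against 0.438 over all animals (rho 0.227). The number of probes without a value had r = 0.165 in the 229 and -0.724 in the 19 (adjusted permutation p = 0.0235 and 0.0116).

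Animal number is the only number the labels give each animal, and they do not say whether it follows litter, date or array order. Of the 33 members 8 were called higher with rising number in limma, against 6.46% of all genes, and 0 lower, against 10.3%. At an unadjusted p under 0.05 the counts were 11 and 0. In animals of lower and higher number, Cox8b averaged -0.0485 ± 0.0963 and -0.0211 ± 0.0928 (SD, n = 124 each), with a slope of 0.0165 ± 0.00553 (SE) log10 units per 100 numbers (limma adjusted p = 0.0239). Ndufs4 averaged -0.0218 ± 0.0706 and 0.0154 ± 0.0685, with a slope of 0.0144 ± 0.00415 (SE) (adjusted p = 0.00729). The means of the 2 sets of animals differed by less than 1 SD in both genes. Atp5j2 had a slope of 0.0135 ± 0.00429 (SE) (adjusted p = 0.0164), Atp5c1 0.0122 ± 0.00252 (SE) (adjusted p = 0.000114) and Ndufb11 0.00980 ± 0.00267 (SE) (adjusted p = 0.00428). Cox7a1, Ndufaf1 and Ndufs8 were the other members called. The result rested on the full run of numbers: 1 member was called within the lower numbers and 0 within the higher, and 5 were called with animal 144 included.

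**Figure D5:**
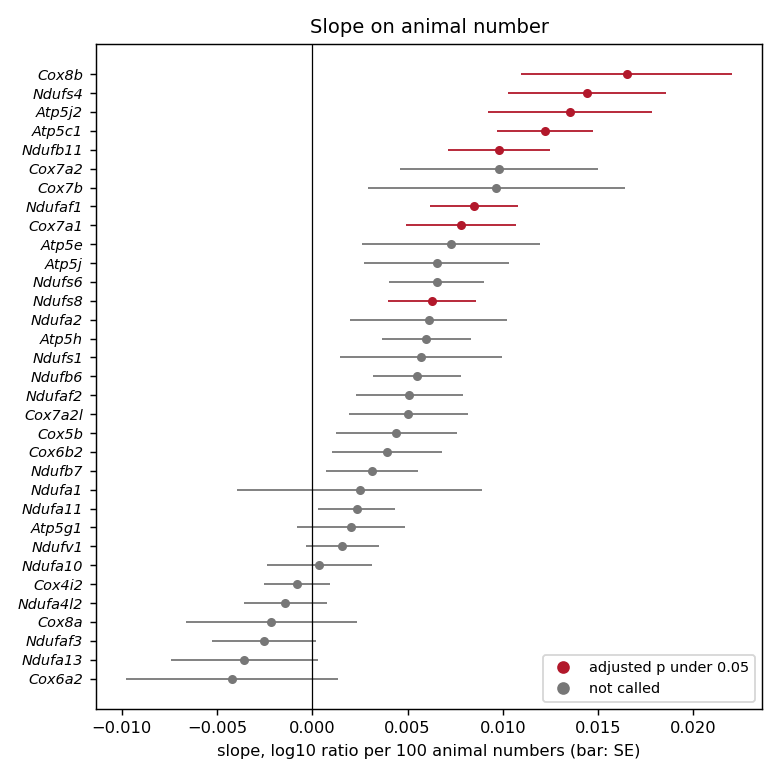
Slope of each of 33 genes on animal number (horizontal axis, log10 ratio per 100 numbers, bars are SE, n = 248), ordered by slope; red marks an adjusted p under 0.05. The 8 genes called all lie on the positive side, and the steepest is Cox8b at 0.0165.

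Probes of the same gene did not always follow each other. The 2 probes of Ndufb11 correlated at 0.992, those of Atp5k at 0.904 and those of Atp5h at 0.836. The 2 probes of Ndufa13 correlated at 0.284 over 120 arrays, the 2 of Ndufb6 at 0.0370, and the 4 of Atp5c1 at 0.170 to 0.950, so the values of these 3 genes depend on which probes are used. Members were also set beside their neighbours in the genome. The 33 genes lay on 15 chromosomes, and over 66 pairs of a member with the next measured gene on either side the median r was 0.0648, with 6 pairs (9.09%) of at least 0.5, against 2.86% and a median of -0.0005 over all gene pairs. Ndufa2 and Dnd1, its neighbour, had the highest at 0.712.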

How the data were processed

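Brain RNA of 249 mice was measured on 1 array each, with Cy3 for the animal and Cy5 for a pool, per the labels. The deposited values are log10 ratios, 1 per probe and array, with limits at -2 and 2; base and direction were read from Y-linked transcripts (upper component at 0.284 and 0.302, near the log10 of 2), and no animal was assigned a sex. How arrays were scanned, background-corrected and normalized was not given in the sources used here; array medians of -0.00627 to 0.0250 show that arrays were centred. No intensities were used, so signal over background is unknown; precision is limited by the number of arrays. With 1 array per animal, p-values measure the spread between animals together with that between arrays, and the 2 cannot be told apart.

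Probes were averaged per gene, over those that carry 1 symbol (13645 of 23388; 48 carry several and 9695 none) and have values on at least 90% of arrays; the 0.711% of missing values were filled with the probe's mean where a probe was used. Tests used limma 3.58.1 (lmFit and eBayes over 11508 genes, Benjamini-Hochberg, threshold 0.05), checked on simulated data, and 100000 two-sided permutations of animals. A gene was split by a mixture of 2 normal components with 1 variance. Promoter windows came from RefSeq on GRCm38.p6, which also gave gene order; the NRF1 motif was shortened by 1 letter after a first search. For 1 sample title and source name differ, and the source name was used. Other settings tried are in the closing section; fits without animals 178 and 336, within the lower part of Ndufa2, with the count of missing probes as a term and with Cox5b for Cox5a were added after seeing the data. Genes with full values are, per complex, the 2 members of highest and the 1 of lowest median r, the 5 of largest SD, the 5 of steepest slope called on animal number, complex IV isoforms, a reference gene per complex, the 10 most and 5 least alike outside genes, and in each list the 2 highest and the 1 lowest; genes of the correlated sets and some subunits named for their role were chosen after their values were seen. The members and the 24 lists were chosen with earlier results of these data known.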

Additional observations from a re-analysis of the deposited data

How the results depend on the processing

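Over the settings tried the median r of members ran from 0.181 to 0.238 and the count of members above the median SD from 10 to 15 of 33 or 27. All 3 relations between complexes passed in each, with r of Ndufa2 and Atp5j from 0.790 to 0.835, but from 0.469 to 0.687 for Ndufa2 and Cox5a and from 0.406 to 0.714 for Cox5a and Atp5j. Members called positive ranged from 16 to 23 on Ndufa2 and from 20 to 28 on Ndufs8. With only probes measured on every array, 57 of 351 pairs (16.2%) reached r of at least 0.5. Members negative on Ndufa2 were 0 in the lower animal numbers, 0 in the lower part of Ndufa2 and 3 with ranks as normal scores, and reached 7 at most. Members negative on Ndufs8 were 1 instead of 0 with animal 144 included, without the 12 arrays of largest SD, in the higher numbers, with arrays scaled by SD and without animal 178. Members called on animal number were 5 with animal 144 included, 1 and 0 in the lower and higher numbers, and at most 11; none was lower under any setting. In the higher numbers 11 of 27 relations of Ndufa2 passed. Ndufa2 with the outside assembly factors turned to 0.0484 in the lower numbers. With the Snrp and Lsm list it turned to -0.0135 in the higher numbers. Neither passed, and the cause was not tested. Levels are not given where values were scaled by SD or ranked, since the unit changes. No paired analysis was possible because there is 1 group and no shared replicate numbers.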

Other observations

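On the array of animal 144, left out above, most chain genes lay low, but some complex IV isoforms lay far above all other animals. Their median was -0.125, against array medians of the same 33 genes from -0.0693 to 0.136 on the other 248 arrays; 9 members lay below and 4 above all other animals. Outside the 33, Cox6a1 stood at -0.440, Cox5a at -0.409 and Cox4i1 at -0.268 on this array, each below its lowest value elsewhere.

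By the mean z of the 33 members, animals 178 (1.93) and 151 (1.46) were highest and animals 9 (-1.08) and 88 (-1.05) lowest. In animal 151, 26 members lay above their mean, 13 of them by more than 2 SD and 0 more than 2 SD below it, while in animal 178 it was 19 above and 5 below by that measure. In animal 9 only 3 of 33 members lay above their mean.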
